A study of Macaca mulatta with 18 samples.

Results

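The proteasome is the protease complex that degrades proteins tagged with ubiquitin. Its barrel-shaped core particle is built from rings of alpha subunits, which gate the channel, and beta subunits, some of which cut peptide bonds. A regulatory particle caps the core: its ATPases unfold the substrate, and its other subunits bind and remove ubiquitin. Cells exposed to interferon exchange the constitutive catalytic beta subunits for immunoproteasome subunits, and in developing brain protein turnover by the proteasome takes part in the cell cycle and in the growth of axons and synapses.

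The members described here are all genes of the RNA table whose macaque symbol begins with PSMA, PSMB, PSMC, PSMD, PSME, PSMF or PSMG. There were 43 of them among 22345 genes, and 14700 genes of the table (65.8%) had a symbol. The symbol table held 50 such symbols. PSMA5, PSMB6, PSMB7, PSMB10, PSMD2, PSMD7 and PSMG2 are not analysed here. By place in the complex, 11 of the 43 coded for constitutive core subunits and 15 for regulatory particle subunits. The rest were tissue-specific and interferon-induced core subunits, activators, assembly chaperones, the regulator PSMF1, and PSMC3IP and PSME3IP1, which carry the prefix without being subunits.

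RNA-seq of wild-type rhesus macaque brain at embryonic day 84 gave 3 libraries of CP and 3 of GZ, abbreviations that the labels do not spell out. No treatment or altered allele is named for either tissue. Values are log2 FPKM, fragments scaled to gene length and library size, normalized with cqn by the authors, so levels are per length. How far levels of different genes can be compared was not tested. Read depth is unknown, because the table carries no counts. Whether each library is a separate animal is not stated in the labels. The tests therefore speak only to scatter among the deposited libraries, some of it possibly technical. Library medians over all genes ran from 1.82 to 1.88. All 10 proliferation markers measured were higher in GZ. The log2 of their summed FPKM was 6.03 to 6.84 in CP libraries and 7.68 to 8.61 in GZ libraries. Of the neuron markers, 7 of 10 were higher in CP with TUBB3 higher in GZ, and 9 of 9 endothelium markers were higher in CP. The log2 of the summed endothelium FPKM was 6.65 to 7.23 in CP libraries and 4.80 to 5.68 in GZ libraries. In bulk RNA, fewer cells of a type and less RNA per cell cannot be told apart. Over 10 Y-linked genes the median level was 1.40 in CP and -0.17 in GZ of the libraries numbered 1, 3.34 and 3.63 in those numbered 2, and -1.78 in both numbered 3. The libraries numbered 1 thus differ from each other in these genes, and counts are given with and without that pair.

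Most proteasome genes were abundant and differed little between the tissues. Of the 43 genes, 38 had a mean of at least 0 over the 6 libraries and were tested with limma, CP minus GZ. At an adjusted p under 0.05, 5 were higher in CP (PSMB5, PSMC5, PSMD14, PSMA2 and PSMA4) and 2 were higher in GZ (PSMC3IP and PSMD11). These 7 made up 18.4% of the members tested, against 45.4% called among all 13460 genes tested. By direction, calls higher in CP were 20.9% of all genes tested, and calls higher in GZ 24.5%. No member reached a 2-fold difference, a size found in 12.7% of all genes tested. The median size of the difference, its sign dropped, was 0.13 on the log2 scale over the members and 0.35 over all genes tested. Signed, the median was 0.06 over the members and -0.05 over all genes.

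**Figure D1:**
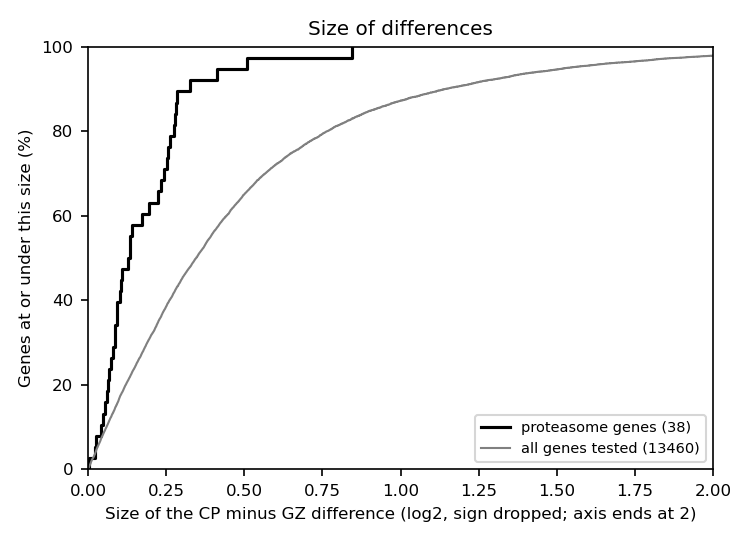
Share of genes (vertical axis, percent) whose CP minus GZ difference, sign dropped, was at or under the size on the horizontal axis (log2), for the 38 proteasome genes tested and for all 13460 genes tested. The proteasome curve lies to the left of the other, with a median of 0.13 against 0.35, and ends under a difference of 1.

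The 3 CP and the 3 GZ values did not overlap for 18 members, 13 with CP above and 5 with GZ above. That is 47.4% of the members tested, against 56.4% of all genes. By direction, CP lay above without overlap in 25.5% of all genes tested, and GZ in 30.9%. The members also varied little between libraries of a tissue, with a median SD of 0.08 on the log2 scale against 0.15 over all genes. Their mean levels had a median of 5.29, at the 79.7th percentile of the genes tested. The lowest member tested was PSMB9 at 2.52 and the highest PSMB1 at 6.30. Of the 31 members that were not called, 26 had a 95% interval of the difference inside 0.5 on the log2 scale either way (1.41-fold), and PSMB9 was the one whose interval passed a 2-fold difference. Without both libraries numbered 1, 2 of 38 members were called, PSMB5 and PSMC3IP, against 25% of all genes. All 7 calls kept their direction there.

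**Figure D2:**
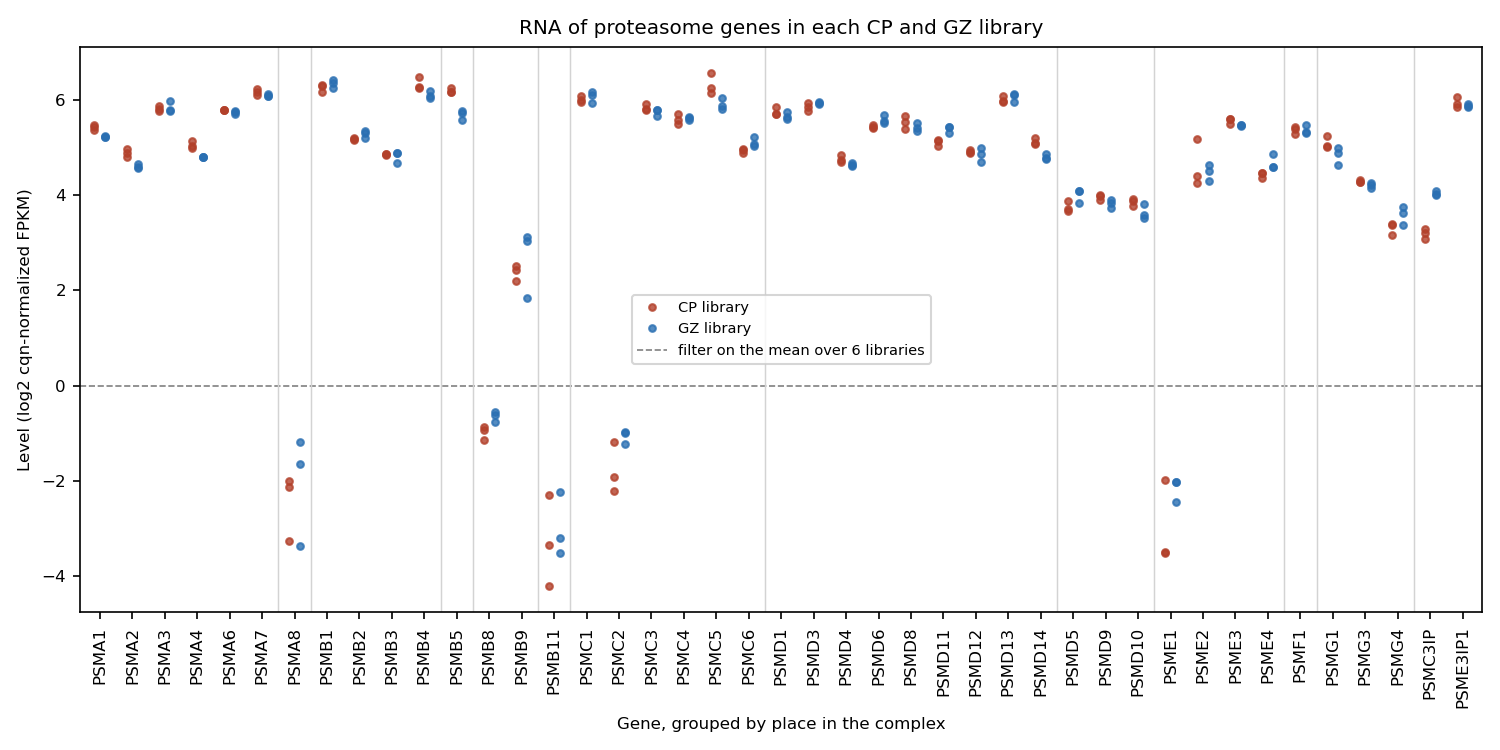
Level of each of the 43 genes (vertical axis, log2 cqn-normalized FPKM) in the 3 CP and the 3 GZ libraries, 1 point per library, with genes grouped by place in the complex and grey lines between groups. Most constitutive subunits lie between about 4.6 and 6.6 in both tissues, and PSMA8, PSMB8, PSMB11, PSMC2 and PSME1 lie below the dashed filter line at 0.

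In the outer rings of the core, 2 of 6 alpha subunit genes rose in CP and none was called higher in GZ. The calls were 33.3% of these genes, against 45.4% of all genes tested, with 20.9% of all genes called higher in CP. PSMA2 had 4.98, 4.89 and 4.81 in the CP libraries numbered 1 to 3, against 4.60, 4.66 and 4.58 in the GZ libraries. Its lowest CP value stood above the highest GZ value. The difference was 0.28 ± 0.08 (log2, SE, n = 3 per tissue; limma adjusted p = 0.025), or 1.21-fold. PSMA4 levels were 5.14, 5.04 and 4.99 in CP and 4.80 in each GZ library. Those GZ values were the most alike of any member (SD 0.0018), and the tissues did not overlap. PSMA4 differed by 0.26 ± 0.08 (adjusted p = 0.028), or 1.20-fold. Both calls were lost without CP replicate 1, GZ replicate 1 or GZ replicate 2, where limma gave adjusted p of 0.052 to 0.098, and with no filter on low genes (0.056 for PSMA2 and 0.064 for PSMA4).

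PSMA1 lay just outside the threshold, with 5.42 ± 0.05 in CP and 5.23 ± 0.01 in GZ (SD, n = 3; limma adjusted p = 0.054). The other alpha genes differed less. PSMA6 was 5.79 ± 0.0024 in CP and 5.74 ± 0.03 in GZ, PSMA7 was 6.17 ± 0.06 in CP and 6.10 ± 0.02 in GZ, and PSMA3 was 5.82 ± 0.04 in CP and 5.84 ± 0.12 in GZ. Their adjusted p ran from 0.408 to 0.837. PSMA8, the alpha subunit of germ cell proteasomes, was below the filter, at -3.27, -2.13 and -2.01 in CP and -1.18, -3.38 and -1.64 in GZ.

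PSMB5, the beta subunit with chymotrypsin-like activity, had the largest difference among the core and regulatory subunits tested. Its levels were 6.17, 6.26 and 6.18 in CP, against 5.74, 5.77 and 5.58 in GZ. All CP libraries lay above all GZ libraries by more than the spread within either tissue. The difference was 0.51 ± 0.08 (log2, SE, n = 3 per tissue; limma adjusted p = 0.0017), or 1.42-fold, with a 95% interval of 0.33 to 0.69. The endothelium markers and 7 of 10 neuron markers were also higher in CP. TUBB3 was higher in GZ, and DCX had a difference of -0.65 without being called. The part of these markers in the PSMB5 difference was not tested. PSMB5 was called under each of the 15 alternatives tried, with adjusted p between 0.0015 and 0.026.

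None of the 4 structural, non-catalytic beta genes passed the limma test, and 1, PSMB4, had an unadjusted p under 0.05. Its levels were 6.27, 6.49 and 6.26 in CP and 6.19, 6.08 and 6.04 in GZ, without overlap (0.23 ± 0.09, adjusted p = 0.057). PSMB1, PSMB2 and PSMB3 had differences of -0.09, -0.11 and 0.04 with overlapping libraries. With quantile normalization PSMB4 and PSMA1 were called as well (adjusted p = 0.0499 and 0.0496), which put 5 of 11 core genes higher in CP in place of 3. Between genes of the core, levels per length ran from 4.75 for PSMA2 to 6.30 for PSMB1.

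No direction was established for the 2 immunoproteasome subunits measured. PSMB8, which takes the place of PSMB5 when immunoproteasomes are assembled, was low and below the filter, so it was not tested. It was -1.13, -0.94 and -0.88 in CP and -0.55, -0.61 and -0.77 in GZ, with every GZ value above every CP value. Within a library, PSMB8 minus PSMB5 was -7.31, -7.21 and -7.06 in CP, against -6.29, -6.38 and -6.35 in GZ (log2). This log ratio differed by -0.85 between the tissues (two-sided exact permutation test p = 0.1, the smallest that 3 against 3 allows), so the design could not reach 0.05. The larger part of it is the PSMB5 difference given above (0.51). The rest is PSMB8 (-0.34), which was below the filter, so the ratio is not separate evidence of an exchange. With the partner genes of PSMB9 and PSMB10 not analysed here, PSMB8 for PSMB5 was the one exchange that could be compared.

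PSMB9, the other interferon-induced catalytic subunit measured, varied most between GZ libraries of all members tested (SD 0.72). Levels were 2.44, 2.19 and 2.52 in CP and 3.03, 3.13 and 1.84 in GZ. GZ libraries 1 and 2 lay above all CP libraries, and GZ library 3 lay below all of them. The difference was -0.28 ± 0.33 (limma adjusted p = 0.515), and without GZ replicate 3 it was -0.70 with an adjusted p of 0.011. PSMB8 and PSMB9 lie on macaque chromosome 4 with TAP1, a peptide transporter gene, as the 1 protein-coding gene between them in RefSeq's T2T-MMU8v2.0 annotation. PSMB11, the catalytic subunit of thymus cortex, was below the filter in both tissues (-4.22 to -2.31 in CP and -3.52 to -2.25 in GZ). Microglia markers, 5 of 10 measured, did not pass in either direction. The log2 of their summed FPKM was 5.84 to 6.38 in CP libraries and 5.51 to 6.16 in GZ libraries. The part of these markers in the PSMB9 values was not tested.

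**Figure D3:**
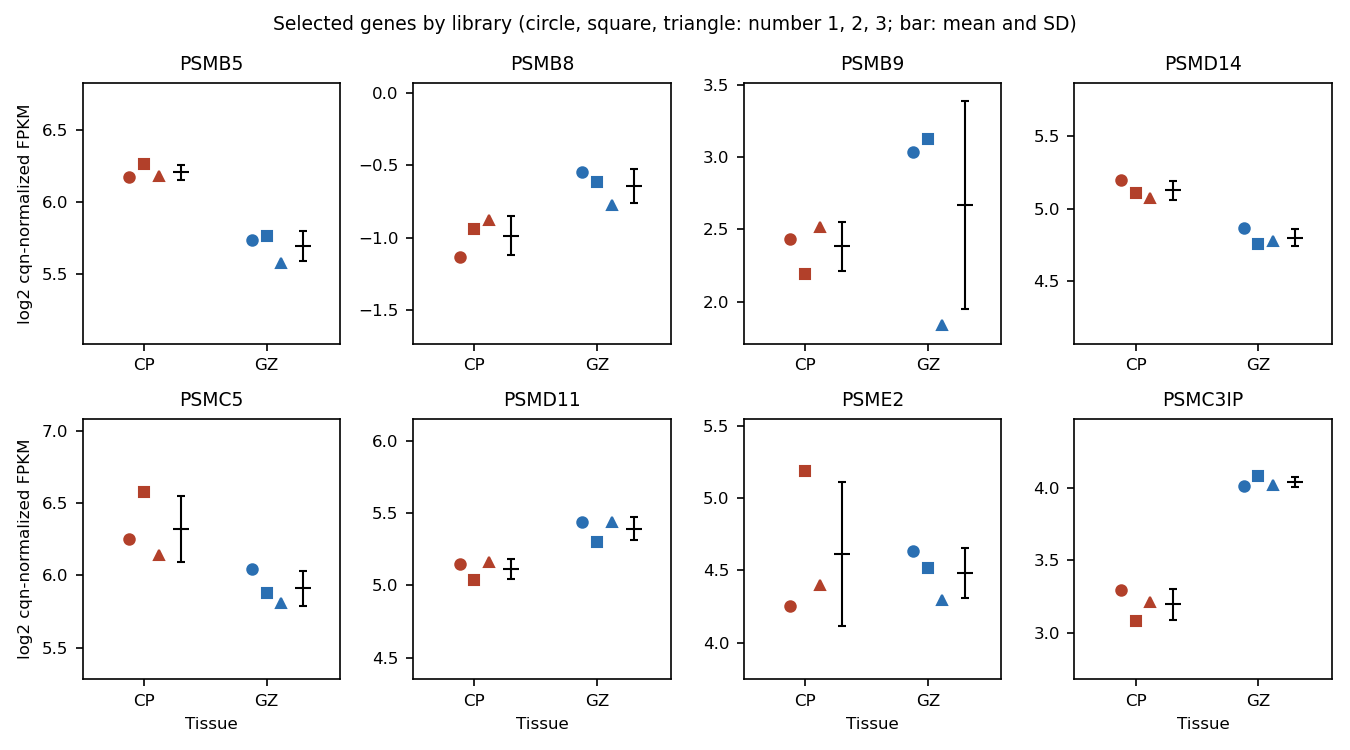
Level (vertical axis, log2 cqn-normalized FPKM, 1.8 units tall in each panel) of 8 genes in CP and GZ libraries. Symbols give the library number and black bars the mean and SD over 3 libraries. PSMB5, PSMD14 and PSMC5 are higher in CP, PSMC3IP and PSMD11 are higher in GZ, PSMB9 is low in GZ library 3 and PSME2 is high in CP library 2.

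Among the ATPases of the regulatory particle, 1 of 5 tested rose in CP, or 20%, against 20.9% of all genes tested. PSMC5 had 6.25, 6.58 and 6.14 in CP and 6.04, 5.88 and 5.81 in GZ. The CP values did not overlap the GZ values, and CP library 2 was the highest. The difference was 0.41 ± 0.12 (limma adjusted p = 0.026), or 1.33-fold. Without CP replicate 2 it was 0.28, and the call was lost there and without GZ replicate 2 or 3 (adjusted p = 0.052, 0.066 and 0.060), and with no variance trend in limma (0.0525).

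PSMC1, PSMC3, PSMC4 and PSMC6 were not called and had differences from -0.17 (PSMC6) to 0.09 (PSMC3). PSMC2, which codes for another ATPase of the same ring, was listed far below its partners. It was -2.21, -1.93 and -1.18 in CP and -0.97, -1.22 and -0.997 in GZ, where the other ATPase genes had means of 5.03 to 6.12 over all libraries. It was below the filter, and no fold is given.

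Of the 9 non-ATPase subunit genes, 1 rose in CP and 1 fell, or 22.2% called, against 45.4% of all genes tested. PSMD14, the metalloprotease that cuts ubiquitin chains from the substrate, had 5.20, 5.11 and 5.07 in CP and 4.87, 4.75 and 4.78 in GZ. The tissues did not overlap, and the difference was 0.33 ± 0.08 (limma adjusted p = 0.012), or 1.25-fold. PSMD14 was called with each library left out in turn, but dropping both number 1 libraries ended the call (adjusted p = 0.0996). PSMD11, a scaffold that ties the lid to the core, went the other way, with 5.15, 5.04 and 5.16 in CP and 5.44, 5.30 and 5.44 in GZ. Every CP value was below every GZ value (-0.28 ± 0.08, adjusted p = 0.023), and the gene was 1.21-fold higher in GZ. Leaving out CP replicate 1, CP replicate 2 or GZ replicate 1 ended that call (limma adjusted p = 0.051, 0.056 and 0.090).

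The other 7 non-ATPase genes were PSMD1, PSMD3, PSMD4, PSMD6, PSMD8, PSMD12 and PSMD13. None passed the limma test, and their differences ran from -0.14 (PSMD6) to 0.13 (PSMD4, a ubiquitin receptor). Set side by side, the core had 3 of 11 genes called, all higher in CP, and the regulatory particle 3 of 14, with 2 higher in CP and 1 higher in GZ. These were 27.3% of the core genes and 21.4% of the regulatory particle genes, against 45.4% of all genes tested, and calls higher in CP alone were 20.9% of all genes. The difference between the particles was not tested. Median differences were 0.07 over the core and 0.02 over the regulatory particle. Library medians of the core genes were 5.78 to 5.79 in CP and 5.58 to 5.75 in GZ. Each core median is the value of a single gene, which changed between libraries. In GZ libraries 1 and 3 that gene was PSMB5 itself (5.74 and 5.58), so these medians do not show a shift of the whole core. For the regulatory particle the library medians were 5.52 to 5.62 in CP and 5.55 to 5.63 in GZ, and so overlapped.

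**Figure D4:**
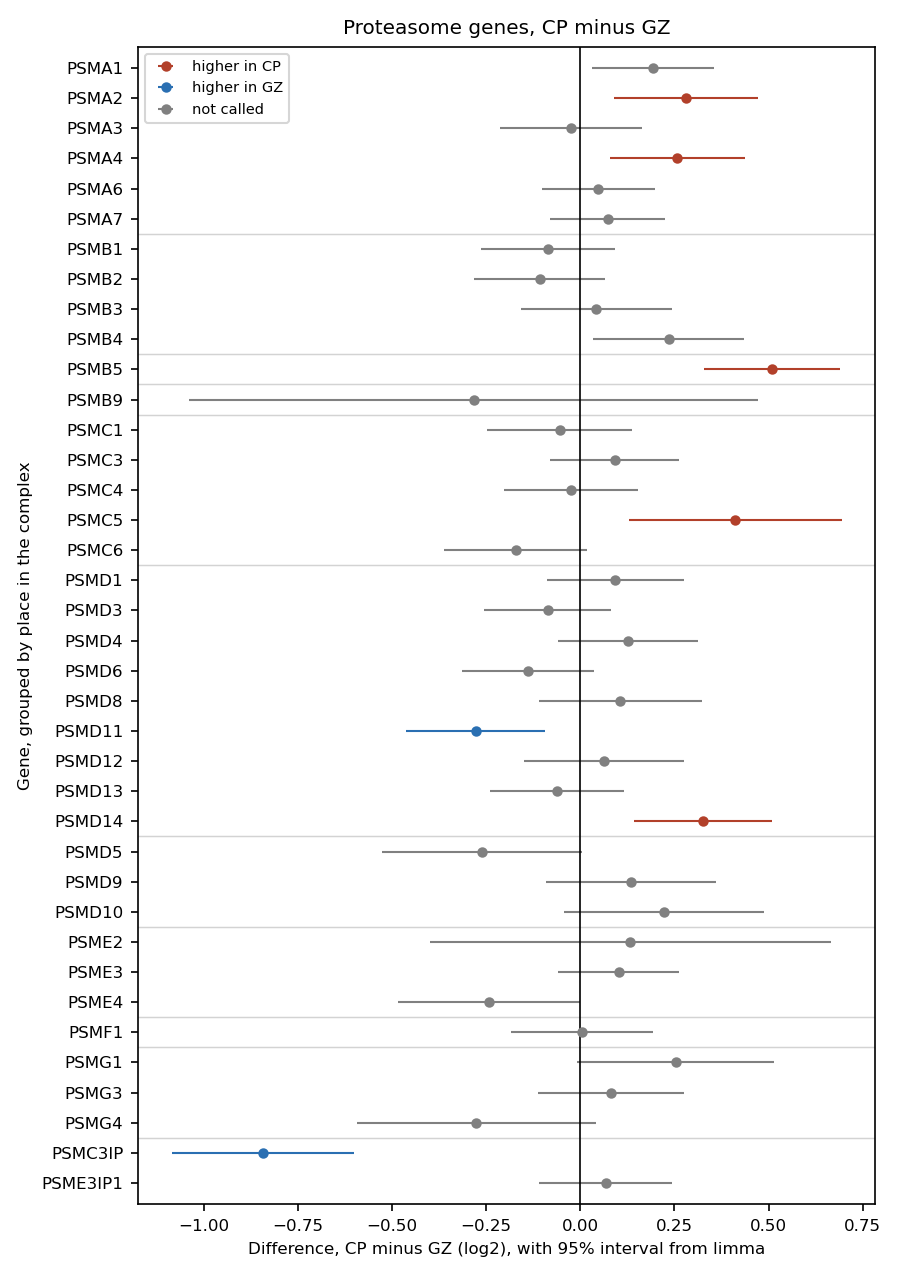
CP minus GZ difference (horizontal axis, log2) of the 38 genes tested, with points for the estimate and bars for limma's 95% interval, grouped by place in the complex. Red marks the 5 genes higher in CP, blue the 2 higher in GZ and grey the 31 not called; PSMC3IP lies farthest from 0 at -0.84.

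None of the 3 activator genes tested passed the limma test, and 1, PSME4, had an unadjusted p under 0.05. PSME2, an interferon-induced subunit of the activator that opens the core, had 4.26, 5.18 and 4.40 in CP and 4.63, 4.51 and 4.29 in GZ. CP library 2 stood above the other 5 libraries, which overlapped. The difference was 0.13 ± 0.23 (adjusted p = 0.672), and without CP replicate 2 it was -0.15. PSME1, its partner, lies next to EMC9 and close to PSME2 on macaque chromosome 7 and was below the filter, at -3.50, -3.52 and -1.99 in CP and -2.03, -2.44 and -2.02 in GZ. The 2 partners of the activator were thus listed far apart in all 6 libraries.

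PSME3, the nuclear activator, was 5.60, 5.49 and 5.60 in CP and 5.47, 5.47 and 5.45 in GZ. PSME4, an activator that acts on acetylated histones, was 4.48, 4.37 and 4.47 in CP and 4.58, 4.59 and 4.87 in GZ. Neither gene overlapped between tissues, in opposite directions, and neither was called (0.10 ± 0.07, adjusted p = 0.272, and -0.24 ± 0.10, adjusted p = 0.092). PSMF1, a core-binding regulator first described as an inhibitor, averaged 5.38 ± 0.08 over CP libraries and 5.37 ± 0.09 over GZ libraries (SD, n = 3). Its difference of 0.0042 had a 95% interval of -0.18 to 0.19.

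Of the 6 chaperones that build the complex and were tested, 0 were called by limma and 0 had an unadjusted p under 0.05. PSMG1, which pairs alpha subunits during core assembly, was 5.02, 5.24 and 5.03 in CP and 4.98, 4.90 and 4.64 in GZ. Its values did not overlap (0.25 ± 0.11, limma adjusted p = 0.103). PSMG3 was 4.29 ± 0.02 in CP and 4.21 ± 0.05 in GZ, and PSMG4, its partner, 3.31 ± 0.13 in CP and 3.59 ± 0.20 in GZ (adjusted p = 0.464 and 0.136). Of the chaperones of the regulatory particle base, PSMD5 had a difference of -0.26, PSMD9 of 0.13 and PSMD10 of 0.22, with adjusted p from 0.098 to 0.301.

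The largest difference among the members tested belonged to a gene that is not a proteasome subunit. PSMC3IP codes for a partner of the recombinases that pair DNA strands in homologous recombination. It was 3.30, 3.08 and 3.21 in CP, against 4.01, 4.08 and 4.02 in GZ. The gap between the tissues exceeded the range within each. The gene was 1.79-fold higher in GZ (-0.84 ± 0.11, limma adjusted p = 7.12e-04), and it was called under all 15 alternatives, with adjusted p from 6.65e-04 to 0.014. The proliferation markers moved the same way, and their part in this difference was not tested. PSME3IP1, which codes for a protein that binds PSME3, was 5.95 ± 0.10 in CP and 5.88 ± 0.04 in GZ (adjusted p = 0.510).

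Proteasome partners, assembly factors and subunits whose symbols lack the prefix came from a list of 24 symbols, aliases included, with 16 genes measured. In this list 5 rose in CP and 1, AKIRIN2, fell, with a median difference of 0.01. The calls were 37.5% of the list, against 45.4% of all genes tested. USP14, a deubiquitinase bound to the regulatory particle, was 5.44, 5.48 and 5.53 in CP and 5.10, 5.09 and 4.83 in GZ. The tissues did not overlap (0.48 ± 0.09, limma adjusted p = 0.0048), and the gene was 1.39-fold higher in CP. UCHL5, the other deubiquitinase of that particle, was 4.86, 4.66 and 4.84 in CP and 4.51, 4.45 and 4.02 in GZ, 1.38-fold higher in CP (adjusted p = 0.028).

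PITHD1 and ECPAS, which codes for a proteasome adaptor, were 1.33-fold and 1.30-fold higher in CP (limma adjusted p = 0.0040 and 0.019). The UCHL5 call was lost without CP replicate 1 or 3 (adjusted p = 0.085 for each), and the ECPAS call without CP replicate 1 or 3 or GZ replicate 1 or 2 (0.058 to 0.059). The remaining calls, named after their values were seen, were UBE3A and AKIRIN2. UBE3A, a ubiquitin ligase, was 0.33 higher in CP on the log2 scale (limma adjusted p = 0.0061). AKIRIN2, needed to bring proteasomes into the nucleus, differed by -0.37 (adjusted p = 0.013). The UBE3A and AKIRIN2 calls were not tried with libraries left out or under the other alternatives. SEM1, a small regulatory particle subunit whose symbol lacks the prefix, was 5.80 ± 0.14 in CP and 5.80 ± 0.30 in GZ.

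NFE2L1, the transcription factor that raises proteasome genes when degradation falls behind, was 5.50, 5.10 and 5.27 in CP and 5.31, 5.25 and 5.33 in GZ. These values overlapped (-0.0062 ± 0.11, limma adjusted p = 0.968). In the list of 12 measured genes around this factor, 1 rose in CP and 3 fell. The calls were 33.3% of that list, against 45.4% of all genes tested. FBXW7, a ubiquitin ligase subunit that targets the factor, was 5.69, 5.80 and 5.58 in CP and 4.99, 4.83 and 4.97 in GZ, or 1.70-fold higher in CP (0.76 ± 0.09, adjusted p = 4.99e-04). SYVN1, a ubiquitin ligase of the endoplasmic reticulum, was 1.36-fold higher in GZ (-0.45 ± 0.08, adjusted p = 0.0028). The related factor NFE2L2 and the partner gene MAFF were 1.51-fold and 1.92-fold higher in GZ (adjusted p = 0.026 and 0.025). The NFE2L2 call was lost without CP replicate 2 or 3 or GZ replicate 2 or 3, and the MAFF call without CP replicate 2 or 3 or GZ replicate 1 or 2 (limma adjusted p from 0.057 to 0.087).

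Among ubiquitin genes and E1 enzymes, 2 of 9 tested rose in CP and 2 fell, or 44.4% called, near the 45.4% of all genes tested. UBA1, the main enzyme that activates ubiquitin, was 6.85, 6.80 and 6.87 in CP and 7.28, 7.25 and 7.27 in GZ. It was 1.34-fold higher in GZ, with no overlap (-0.43 ± 0.06, limma adjusted p = 0.0013). RPS27A, a ubiquitin gene fused to a ribosomal protein, was 1.23-fold higher in CP (ENSMMUG00000015563, adjusted p = 0.0095), and a further identifier with that symbol lay below the filter. The subunits of the enzyme that activates SUMO went opposite ways, SAE1 1.23-fold higher in CP (adjusted p = 0.046) and UBA2 1.16-fold higher in GZ (adjusted p = 0.030). The SAE1 call was lost without any 1 of CP replicates 1, 2 and 3 or GZ replicates 1 and 3, and the UBA2 call without any 1 library (limma adjusted p from 0.056 to 0.118). Both were also lost with no filter (0.061 for SAE1 and 0.057 for UBA2) and with no variance trend (0.086 and 0.074).

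In the antigen presentation and interferon list 12 of 19 genes were measured and 10 tested. None of these rose in CP and 2 fell (20% called, against 45.4% of all genes tested). STAT2, which carries interferon signals to the nucleus, was 3.62, 3.62 and 3.53 in CP and 4.24, 4.35 and 4.32 in GZ. It was 1.64-fold higher in GZ (-0.71 ± 0.09, limma adjusted p = 8.39e-04). IRF1, a factor that switches on immunoproteasome genes, was 0.07, -0.16 and 0.07 in CP and 2.38, 2.08 and 0.19 in GZ. GZ library 3 lay near the CP libraries. The IRF1 difference was -1.56 ± 0.52 (limma adjusted p = 0.042). Its CP mean of -0.0089 was below the filter level of 0, so the gene entered the test through its GZ values. The IRF1 call was lost without any 1 of the 5 libraries other than GZ library 3 (0.085 to 0.132) and with no variance trend (0.059).

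**Figure D5:**
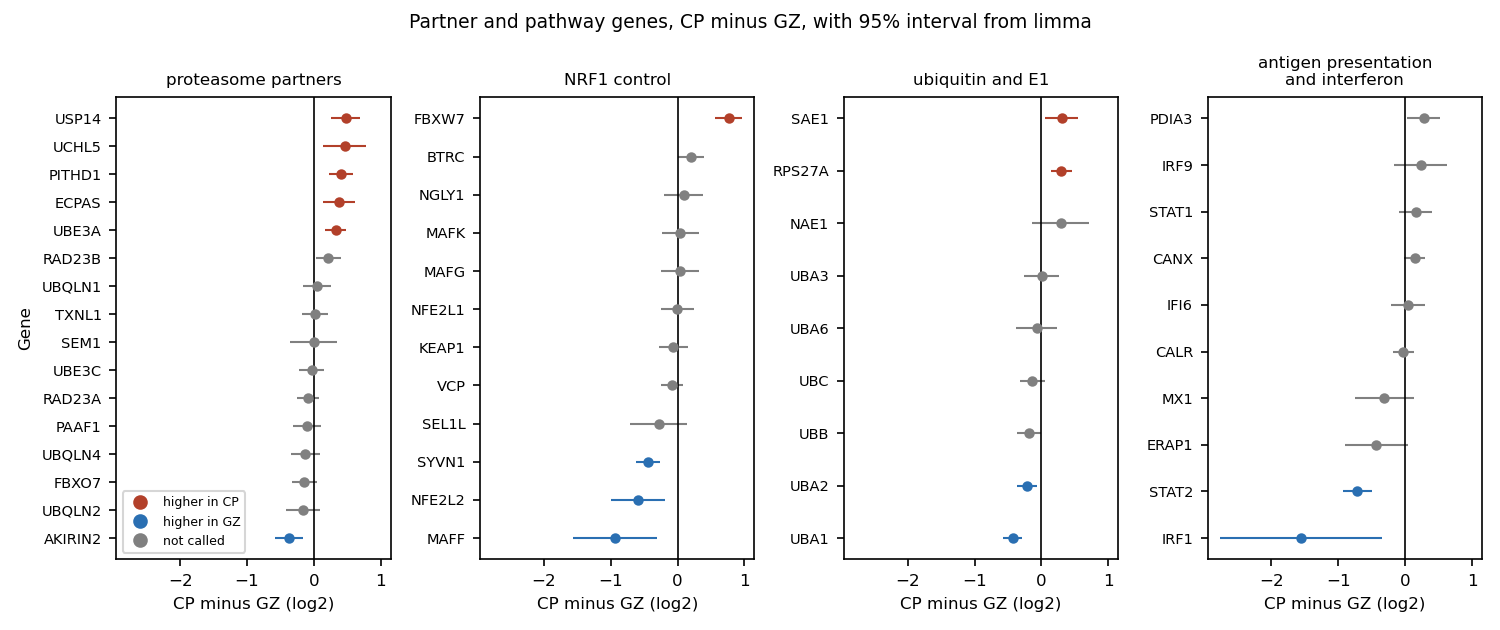
CP minus GZ difference (horizontal axis, log2) of the tested genes of 4 lists around the proteasome, with limma's 95% interval; red marks genes higher in CP, blue genes higher in GZ and grey genes not called. USP14 and FBXW7 lie to the right, and UBA1, STAT2 and IRF1 to the left, with NFE2L1 at 0.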

How the data were processed

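RNA-seq of 3 CP and 3 GZ libraries was analysed; loop, boundary, DNase and CTCF files were not used here. The authors deposited log2 FPKM values normalized with cqn, per the file name that the labels quote. Per the submitters' processing notes, tools included STAR and SAMtools, and builds named were Mmul_8.0.1 and rheMac8, without roles or versions. Read counter, annotation release, strand setting and handling of multiply mapping reads: not given in the sources used here. Many proteasome genes have processed copies in the genome, so reads could be split between a gene and its copies. Groups and numbers came from sample titles.

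Symbols came from a reference table (14700 of 22345 identifiers). The 13460 genes averaging at least 0 over 6 libraries were tested with limma 3.58.1 in R 4.3.3 (lmFit and eBayes with trend, CP minus GZ, no block, no pseudocount), with Benjamini-Hochberg adjustment over all of them and a threshold of 0.05. The fit was also run on simulated data with planted changes larger than any member's difference, so that run does not bear on differences of the members' size. Ratios used a two-sided exact permutation test in scipy 1.17.1.

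Members and lists were chosen with earlier results of these data known. Genes chosen for fuller description included called members with the 4 largest differences in each class. The catalytic subunits, activators, regulator and chaperones were also chosen, and up to 4 called genes of each list. Not all are given by library. Some have only a mean and SD (such as PSMF1, PSMG3 and PSMG4), a difference (PSMD5, PSMD9 and PSMD10) or a fold. PSMA1, PSMB4, the low genes, SEM1 and NFE2L1 were added after their values were seen. The lists covered partners, NRF1 (NFE2L1) control, ubiquitin and E1 genes, antigen presentation, and markers of proliferating cells, neural progenitors (4 of 6 measured higher in GZ), neurons, microglia, endothelium, blood (2 of 4 tested higher in CP) and Y-linked genes.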

Additional observations from a re-analysis of the deposited data

How the results depend on the processing

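Depth is unknown, and 3 libraries per tissue limit the precision. The numbers in the labels were not taken to pair the libraries, since the libraries numbered 1 did not go together. Deviations of same-numbered libraries correlated at -0.38, 0.30 and 0.35 for numbers 1, 2 and 3. Of the correlations with the 3 GZ libraries, the same-numbered one was the highest for CP libraries 2 and 3 and the lowest for CP library 1. With the replicate block the same 7 members were called. For PSMB8 minus PSMB5 the blocked difference of -0.85 equals the unblocked one by construction. Its exact sign-flip permutation p was 0.25, the smallest that 3 pairs allow. With no filter, 3 members were higher in CP, 1 of them in the core; with quantile normalization 5 core genes were. Without a variance trend 1 regulatory particle gene was higher in CP. Without both libraries numbered 1, 1 member was higher in CP and 1 in GZ, 1 core gene was higher in CP, 0 regulatory particle genes were higher in CP and 0 in GZ, over all genes 1716 were higher in CP and 1647 in GZ, and the uncalled PSME3IP1 and PSMF1 turned to -0.0061 and -0.0610. The calls of UCHL5, PITHD1, ECPAS, MAFF, SAE1, RPS27A, UBA2 and IRF1 were lost there too. Leaving out 1 library gave 2 to 5 members higher in CP and 1 to 3 higher in GZ, 1 to 3 core genes higher in CP, 1 to 2 regulatory particle genes higher in CP and 0 to 1 in GZ, and over all genes 2243 to 2855 higher in CP and 2261 to 3146 in GZ. Uncalled differences near 0 changed sign: PSMA3 ran from -0.0629 to 0.0445, PSMB3 from -0.0263 to 0.0767, PSMC4 from -0.0761 to 0.0188, PSMD12 from -0.0089 to 0.13, PSMF1 from -0.0286 to 0.0545 and PSME2 from -0.15 to 0.31. The members' median difference stayed between 0.04 and 0.08. Where no value shows it, the cause was not tested.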

Other observations

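A few libraries stood apart in several genes, most of them named above and all singled out after their values were seen. How often each library was the highest or lowest over all genes was not counted. In GZ library 3, PSMB9 (1.84), IRF1 (0.19) and MAFF (2.95) were lower than in GZ library 1 (3.03, 2.38 and 3.94) and GZ library 2 (3.13, 2.08 and 3.91). PSMB8, which lies close to PSMB9, was -0.77 in GZ library 3, against -0.55 and -0.61 in GZ libraries 1 and 2. CP library 2 had the highest CP value of PSME2 (5.18), PSMC5 (6.58), PSMB4 (6.49), PSMG1 (5.24) and IRF9, an interferon response factor (4.29, against 3.64 and 3.76 in CP libraries 1 and 3). The log2 of the summed FPKM of proliferation markers was 6.03 in CP library 2 and 7.68 in GZ library 3, the lowest of each tissue. Their part in these values was not tested.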
